A study of Arabidopsis thaliana with 6 samples.

Results

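The genes of starch synthesis and breakdown were followed in whole seedlings of Arabidopsis thaliana, as a list of 42 genes among the 32833 genes counted. The list holds the enzymes, transporters and granule proteins known to make starch in the plastid and to return it to sugar, was chosen by gene identity, and all 42 genes were present in the count files. Wild type seedlings of the common laboratory accession Col-0 were compared with a line labelled amiRNA-VQ1,10, with 3 libraries for each genotype. Seedlings of both genotypes were 14 days old, had grown on MS medium with 1% sucrose in long days of 16 h light and 8 h dark, at a light level of 150 µmol m-2 s-1 and 21% oxygen, and were collected 4 h after lights on. No other treatment was given. The line carries an artificial microRNA, a designed small RNA that directs the removal of matching transcripts, and its name points to the VQ1 and VQ10 transcripts. The promoter that drives the microRNA, the number of independent lines and the number of seedlings in a library were not stated in the labels. The libraries were made by 3′ RNA-seq, where a transcript is counted from its end, so that levels of different genes can be set side by side without a correction for transcript length.

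In leaves, starch is built in the chloroplast during the day and is broken down at night to feed the plant. ADP-glucose pyrophosphorylase makes the sugar nucleotide ADP-glucose, starch synthases add its glucose to growing chains, and branching and debranching enzymes shape the chains so that they pack into a granule. Breakdown starts when dikinases phosphorylate the granule surface. Phosphatases then remove the phosphate while beta-amylases release maltose, which leaves the chloroplast through MEX1 and is used in the cytosol by DPE2. VQ proteins are known to bind WRKY transcription factors, which recognise the W-box in promoters.

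The stretches of 250 bases before the annotated gene start were read for all 42 genes from the RefSeq genome and annotation of TAIR10.1, on the gene's own strand, and searched on both strands for a set of regulatory words. The words were the W-box (TTGACC or TTGACT), the G-box CACGTG, bound by bZIP and bHLH factors, the evening element AAATATCT, bound by clock factors, and TATCCA, known from sugar-responsive amylase promoters of rice. A G-box stood before 12 of the 42 starch genes (28.6%), against 6.49% of the 27438 stretches of the same length before nuclear protein-coding genes. The evening element stood before 6 starch genes (14.3%) and before 4.79% of all genes. The W-box was found before 9 starch genes (21.4%) and 28.4% of all genes, and TATCCA before 5 (11.9%) and 13.6%. In 14 of the 42 genes the stretch reached into a neighbouring annotated gene. These matches describe the letters and do not show that a factor binds there. A set of 5 stretches is printed here, with the words found in capitals. BAM5 had the smallest p of the starch genes. APL1, DPE1 and PWD were among the 7 tested genes whose ranges did not overlap between the genotypes. PHS1 is shown because its stretch held the most of these words. The stretch of AMY2 is not printed because it reaches into a neighbouring gene, as do those of SS2 and PHS2. The stretch of BAM8, which also had ranges apart, holds a W-box and reaches into no neighbour, but was left out of the printed set. None of the 5 reaches into another gene, and in PHS1 a G-box shares letters with a TATCCA word.
PHS1 (AT3G29320, chr3:11252557-11252806, plus strand, TAIR10.1), with the G-box in 3 places: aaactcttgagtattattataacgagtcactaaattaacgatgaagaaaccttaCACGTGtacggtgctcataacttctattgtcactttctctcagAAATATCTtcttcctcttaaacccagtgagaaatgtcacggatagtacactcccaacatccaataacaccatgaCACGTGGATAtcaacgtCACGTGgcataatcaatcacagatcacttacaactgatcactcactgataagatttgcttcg
DPE1 (AT5G64860, chr5:25928880-25929129, minus strand, TAIR10.1), with a W-box and 2 G-boxes: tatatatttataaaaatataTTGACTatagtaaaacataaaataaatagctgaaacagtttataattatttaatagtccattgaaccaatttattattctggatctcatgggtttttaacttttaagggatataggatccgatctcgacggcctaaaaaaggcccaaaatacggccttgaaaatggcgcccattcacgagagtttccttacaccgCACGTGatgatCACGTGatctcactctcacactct
PWD (AT5G26570, chr5:9261229-9261478, plus strand, TAIR10.1), with an evening element on the reverse strand: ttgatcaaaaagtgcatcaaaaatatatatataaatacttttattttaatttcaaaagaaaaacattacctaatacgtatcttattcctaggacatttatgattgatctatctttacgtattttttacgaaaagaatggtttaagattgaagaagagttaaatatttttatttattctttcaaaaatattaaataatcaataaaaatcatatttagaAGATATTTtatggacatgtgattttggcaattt
APL1 (AT5G19220, chr5:6466832-6467081, minus strand, TAIR10.1), with a W-box on the reverse strand: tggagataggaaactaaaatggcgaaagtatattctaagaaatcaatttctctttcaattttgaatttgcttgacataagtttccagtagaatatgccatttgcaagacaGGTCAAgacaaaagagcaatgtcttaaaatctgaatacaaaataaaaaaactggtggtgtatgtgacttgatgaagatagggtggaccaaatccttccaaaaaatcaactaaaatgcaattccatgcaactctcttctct
BAM5 (AT4G15210, chr4:8669527-8669776, minus strand, TAIR10.1), with none of the words: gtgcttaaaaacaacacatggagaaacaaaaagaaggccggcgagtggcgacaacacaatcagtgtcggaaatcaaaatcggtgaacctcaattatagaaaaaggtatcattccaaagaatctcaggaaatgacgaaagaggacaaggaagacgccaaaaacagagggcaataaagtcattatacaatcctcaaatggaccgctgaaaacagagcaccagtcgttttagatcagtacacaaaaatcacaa

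The libraries held 926209 to 1329817 counts over genes, and starch genes took 0.182% to 0.208% of them. VQ1 had 5, 1 and 2 counts in Col-0 and 0 in each amiRNA-VQ1,10 library, and VQ10 had a single count in Col-0 replicate 1. Both were under the filter, so the lowering of neither could be established at this depth. In the fit without a filter the edgeR adjusted p of VQ1 was 0.522. Leaf and root markers were present in all libraries, as whole seedlings should show. The summed level of 5 leaf markers was 16096 to 16577 CPM (counts scaled to a common library size by TMM) in Col-0 and 16977 to 18406 CPM in amiRNA-VQ1,10, without overlap, and all 5 had a log2 fold change above 0 (median 0.12). Of the 5, 0 passed the edgeR test, with a smallest adjusted p of 0.781, and 1 had an unadjusted p under 0.05. The summed level of 6 root markers was 1338 to 1368 CPM in Col-0 and 1304 to 1744 CPM in amiRNA-VQ1,10. Most of that sum was PYK10 (mean 1116 CPM, log2 fold change 0.22 ± 0.09, unadjusted p = 0.0217, edgeR adjusted p = 0.684), while the other 4 tested root markers lay below 0 and the median over the 5 tested was -0.03. In whole seedlings a change in the share of a tissue and a change in transcript per cell cannot be told apart. QQS (AT3G30720), which has no relatives outside Arabidopsis and is known for its effect on leaf starch content, had 266, 274 and 237 CPM in Col-0 and 24.5, 25.6 and 33.3 CPM in amiRNA-VQ1,10, so the starch genes below were measured in seedlings with a strongly lowered QQS transcript (log2 fold change -3.21 ± 0.14, SE, edgeR adjusted p = 3.5e-13).

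No starch gene differed between the genotypes past the threshold. Of the 42 genes 35 had enough counts to be tested, and 0 of them passed (edgeR's quasi-likelihood test with a Benjamini-Hochberg adjusted p under 0.05, taken over all 12701 tested genes), where 0.102% of all tested genes did. With so small a share called over all genes, a count of 0 says nothing particular to the starch genes. At an unadjusted p under 0.05 there were 2 starch genes, BAM5 and AMY2, both lower in amiRNA-VQ1,10. That is 5.71% of the tested starch genes, close to the 6.02% among all tested genes. DESeq2 and limma-voom also called 0 starch genes, with 0 and 2 at an unadjusted p under 0.05. Over all 12701 tested genes they called 6 and 8. The fit without Col-0 replicate 2 and the fit with no filter on low counts each called 1 starch gene, BAM5 in both. These fits also called more genes over all, 37 of 13147 and 92 of 22738, where the main fit called 13 of 12701.

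The median log2 fold change, amiRNA-VQ1,10 over Col-0, was -0.03 over the 35 tested starch genes and 0.00 over all tested genes. It was -0.04 over the 15 tested genes of synthesis and -0.02 over the 18 tested genes of breakdown. There were 13 starch genes above 0 and 22 below, where all tested genes had 6444 above and 6257 below. Only 17 of the 35 kept their sign in every alternative fit. In size, the median difference was 0.13 on the log2 scale, against 0.14 over all tested genes. Summed over the 42 genes, the level was 2007, 2023 and 2103 CPM in Col-0 and 1923, 1872 and 2147 CPM in amiRNA-VQ1,10. The lowest and the highest of these sums were both amiRNA-VQ1,10 libraries, and the ranges overlapped.

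The intervals show what size of change the data leave room for. The 95% interval of the difference lay within 2-fold in either direction for 30 of the 35 tested genes (85.7%, against 88.1% of all tested genes), and within 1.5-fold for 19 of them (54.3%, against 47.4%). The 5 genes whose interval reached past 2-fold were BAM5, AMY2 and LSF1 on the lower side and BAM8 and DPE1 on the higher side. All 6 genes of at least 100 CPM (GBSS1, BAM1, BAM3, SS1, APL1 and APS1) had an interval within 1.5-fold, with a median SE of 0.11 on the log2 scale. None of the 10 tested genes under 20 CPM did, with a median SE of 0.32.

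In 7 of the 35 tested genes (20%) the CPM ranges of the genotypes did not overlap, where 10.4% of all tested genes had ranges apart. PWD and AMY2 were lower in every amiRNA-VQ1,10 library, and APL1, SS2, BAM8, DPE1 and PHS2 were higher. Lower and higher ranges were found in 5.10% and 5.30% of all tested genes. None of the 7 passed the test.

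**Figure D1:**
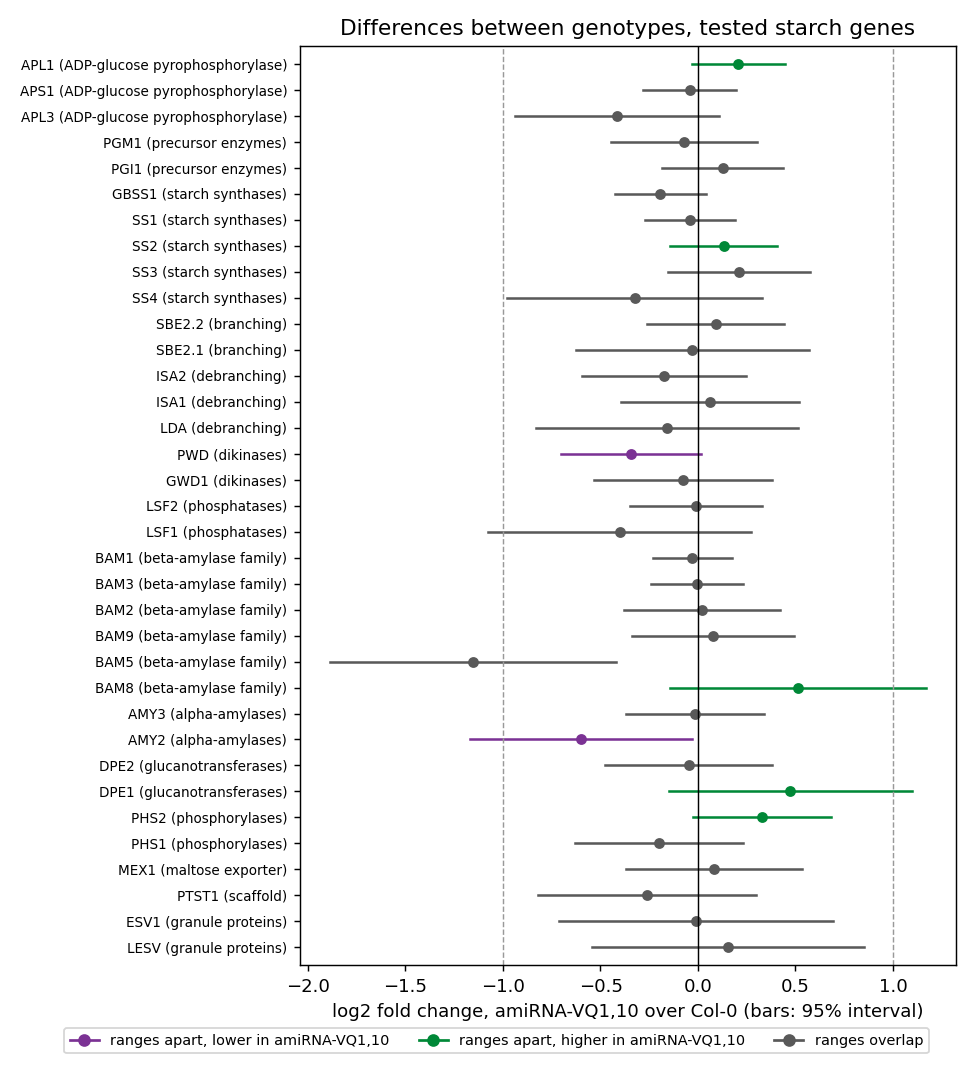
Log2 fold change of each tested starch gene, amiRNA-VQ1,10 over Col-0 (x axis), with its 95% interval as a bar; dashed lines mark 2-fold, and colours mark the genes whose CPM ranges did not overlap. Intervals of all genes but BAM5 and AMY2 cross 0, and no gene passed the adjusted threshold.

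The genes that supply glucose units to starch had overlapping ranges. PGI1 and PGM1 are the plastid isomerase and mutase that make glucose 1-phosphate from fructose 6-phosphate. PGI1 had 49.6, 48.5 and 53.4 CPM in Col-0 and 51.9, 53.4 and 59.5 CPM in amiRNA-VQ1,10 (log2 fold change 0.13 ± 0.15, SE, edgeR adjusted p = 0.967). PGM1 had 44.4, 73.1 and 48.0 CPM in Col-0 and 57.5, 44.5 and 56.0 CPM in amiRNA-VQ1,10 (log2 fold change -0.07 ± 0.18, adjusted p = 0.989). Col-0 replicate 2 stood above all other libraries of PGM1, and without it the difference was 0.20.

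ADP-glucose pyrophosphorylase takes the first step committed to starch. It is built from small subunits, of which APS1 is the main catalytic one, and large subunits, of which APL1 is the leaf form. APS1 had 116, 124 and 122 CPM in Col-0 and 111, 115 and 125 CPM in amiRNA-VQ1,10, with overlapping ranges and a log2 fold change of -0.04 ± 0.12 (adjusted p = 0.989). APL1 had 105, 121 and 115 CPM in Col-0 and 136, 127 and 131 CPM in amiRNA-VQ1,10. All amiRNA-VQ1,10 libraries were above all Col-0 libraries, by a small step (log2 fold change 0.21 ± 0.12, adjusted p = 0.858). The summed level of the leaf markers stood higher in the same libraries, with ranges apart for 2 of the 5 markers, where 10.4% of all tested genes had ranges apart. The part of the leaf markers in the APL1 difference was not tested. A long gene on the other strand covers most of APL1, and whether the counting used strand is not given in the sources used here.

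The other large subunits, known from tissues that import sugar, were lower in mean level in amiRNA-VQ1,10. APL3, known to be induced by sugar, had 28.7, 18.5 and 32.6 CPM in Col-0 and 24.5, 15.6 and 18.4 CPM in amiRNA-VQ1,10 (log2 fold change -0.42 ± 0.25, adjusted p = 0.872). The ranges of APL3 overlapped because Col-0 replicate 2 was as low as the amiRNA-VQ1,10 libraries. Without that library the difference was -0.64 (edgeR adjusted p = 0.676), the largest with a library left out. Without Col-0 replicate 3 it was -0.25 (edgeR adjusted p = 0.990), the smallest. APL2 had 11, 8 and 6 counts in Col-0 and 5, 3 and 4 counts in amiRNA-VQ1,10, too few for the filter. APL4, which is not on the list, had 9, 6 and 11 counts and 3, 3 and 8 counts. As a share of all large-subunit counts, APL1 made up 69.5%, 80.5% and 70.6% in Col-0 and 80.9%, 85.1% and 82.0% in amiRNA-VQ1,10. The ranges of the share did not overlap, by a margin smaller than the spread among the Col-0 libraries, and no test was made of it because it was formed after the values were seen. Summed over the 4 listed subunits, the enzyme stood at 268 ± 7.91 CPM (SD, n = 3, as for all means given below) in Col-0 and 272 ± 9.80 CPM in amiRNA-VQ1,10.

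**Figure D2:**
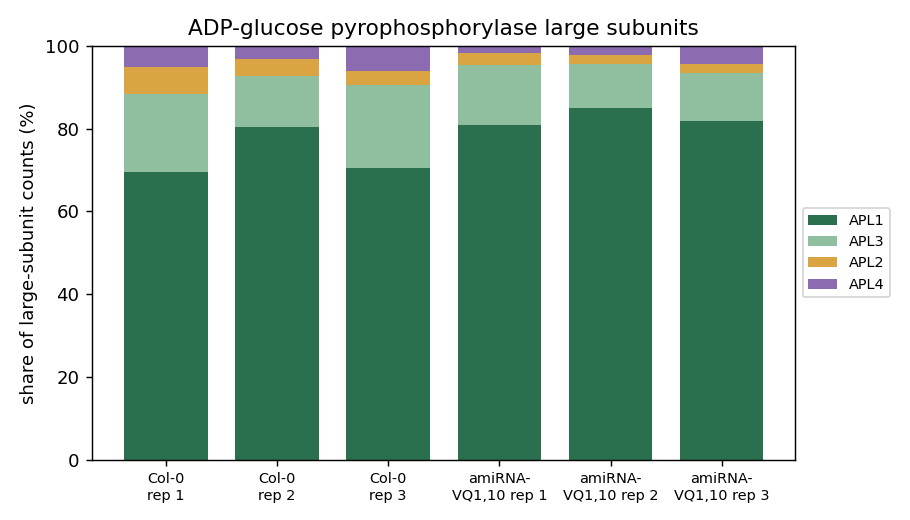
Share of the large-subunit counts of ADP-glucose pyrophosphorylase (y axis, percent) taken by APL1, APL2, APL3 and APL4 in each library (x axis). APL1 held 69.5% to 80.5% in Col-0 and 80.9% to 85.1% in amiRNA-VQ1,10.

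The starch synthases kept the same order of mean level in both genotypes, from GBSS1 through SS1, SS2 and SS3 to SS4. GBSS1, which makes amylose and binds to the granule, was the most abundant of the 42 genes, with 285, 238 and 293 CPM in Col-0 and 223, 206 and 280 CPM in amiRNA-VQ1,10. Its ranges overlapped, with 2 of the 3 amiRNA-VQ1,10 libraries below Col-0 (log2 fold change -0.19 ± 0.11, adjusted p = 0.858). Without amiRNA-VQ1,10 replicate 3, the highest of its genotype, the difference of GBSS1 was -0.34, still not past the threshold (unadjusted p = 0.00598, edgeR adjusted p = 0.347). Over the fits with a library left out, the difference of GBSS1 ran from -0.34 to -0.11. The unadjusted edgeR p of these fits ran from 0.00598 to 0.358. GBSS1 had an unadjusted p under 0.05 in 3 of the 14 alternative fits. SS1, which extends short amylopectin chains, stood at 194 ± 13.7 and 188 ± 26.6 CPM. SS2, which builds chains of middle length, stood at 73.3 ± 2.19 and 80.1 ± 6.58 CPM, with ranges that just missed each other. SS3, which acts with SS4 in granule formation, had 42.7, 42.3 and 48.9 CPM in Col-0 and 39.6, 50.1 and 63.9 CPM in amiRNA-VQ1,10. Its difference of 0.21 rested on amiRNA-VQ1,10 replicate 3 and was -0.00077 without that library. SS4, which initiates granules, was the scarcest synthase at 13.0 ± 2.06 and 10.4 ± 2.27 CPM. PTST1, a scaffold that brings GBSS1 to starch, had 18.3, 17.7 and 23.5 CPM in Col-0 and 10.4, 18.9 and 20.1 CPM in amiRNA-VQ1,10 (log2 fold change -0.26 ± 0.27, adjusted p = 0.961).

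Both branching enzymes and the isoamylase complex overlapped between genotypes. SBE2.2 (AT5G03650) had 43.5, 42.3 and 61.5 CPM in Col-0 and 52.8, 55.6 and 48.1 CPM in amiRNA-VQ1,10 (log2 fold change 0.09 ± 0.17, adjusted p = 0.980). SBE2.1 (AT2G36390) stood lower, at 15.8 ± 0.667 and 15.1 ± 5.91 CPM. The high Col-0 value of SBE2.2 was replicate 3, and the wide spread of SBE2.1 in amiRNA-VQ1,10 came from 21.9 CPM in replicate 3 beside 12.3 and 11.1 CPM. ISA1 and ISA2 form the debranching complex that trims new amylopectin, and ISA2 is its subunit without activity. ISA2 had 29.6, 31.6 and 36.2 CPM in Col-0 and 33.9, 22.3 and 28.9 CPM in amiRNA-VQ1,10 (log2 fold change -0.18 ± 0.20, adjusted p = 0.967). ISA1 stood at 25.4 ± 4.06 and 26.4 ± 5.72 CPM.

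Among the enzymes that open the granule, PWD was lower in each amiRNA-VQ1,10 library. GWD1 (also SEX1) phosphorylates glucans first, and PWD acts after it on glucans that already carry phosphate. PWD had 49.6, 45.4 and 39.8 CPM in Col-0 and 37.7, 32.3 and 35.9 CPM in amiRNA-VQ1,10. The gap between the ranges was smaller than the SD of either genotype (4.92 and 2.77 CPM), and the difference did not pass (log2 fold change -0.34 ± 0.17, unadjusted p = 0.0587, edgeR adjusted p = 0.841). GWD1 stood at 26.4 ± 4.63 and 25.1 ± 4.25 CPM, with a log2 fold change of -0.08 ± 0.22. The phosphatase LSF2 was among the most even genes, with 43.5, 40.0 and 43.4 CPM in Col-0 and 40.5, 42.3 and 42.9 CPM in amiRNA-VQ1,10 (log2 fold change -0.01 ± 0.16, adjusted p = 0.995). LSF1, a phosphatase relative that works as a scaffold for beta-amylases, had 13.1, 10.8 and 19.0 CPM in Col-0 and 7.54, 11.1 and 13.1 CPM in amiRNA-VQ1,10 (log2 fold change -0.40 ± 0.33, adjusted p = 0.933). Its 3′ end overlaps a neighbouring gene on the same strand by 343 bases, and how reads there were counted is not stated. SEX4, the main phosphatase of the granule surface, had 9 to 11 counts in Col-0 and 4 to 15 counts in amiRNA-VQ1,10 and was under the filter.

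The beta-amylase family held 9 genes that differ widely in level and role, and BAM1 and BAM3 together gave 74.2% to 80.3% of its counts in each library. BAM3 is the main chloroplast enzyme of starch breakdown at night, and BAM1 acts in the light, in guard cells and under stress. BAM1 had 211, 229 and 213 CPM in Col-0 and 199, 217 and 224 CPM in amiRNA-VQ1,10, a log2 fold change of -0.03 ± 0.10 (adjusted p = 0.990). It had the smallest SE of the tested starch genes, and its 95% interval spans 0.851-fold to 1.13-fold. BAM3 had 217, 216 and 193 CPM in Col-0 and 208, 169 and 242 CPM in amiRNA-VQ1,10 (log2 fold change -0.01 ± 0.11). The amiRNA-VQ1,10 libraries of BAM3 lay both below and above those of Col-0, with replicate 2 lowest and replicate 3 highest.

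BAM5 had the smallest p value and the largest difference of the starch genes. It is a beta-amylase outside the chloroplast, known from the phloem and from induction by sugar, and plants without it are known to break down leaf starch normally. BAM5 had 46.1, 16.2 and 41.6 CPM in Col-0 and 5.66, 23.4 and 17.5 CPM in amiRNA-VQ1,10. Col-0 replicates 1 and 3 were above all other libraries, while Col-0 replicate 2 lay inside the amiRNA-VQ1,10 range. The log2 fold change was -1.16 ± 0.35 (SE, unadjusted p = 0.00342, edgeR adjusted p = 0.401), with a 95% interval of 0.270-fold to 0.746-fold. It was -1.52 without Col-0 replicate 2 (adjusted p = 0.0135) and -0.75 without amiRNA-VQ1,10 replicate 1 (adjusted p = 0.830). Without a filter on low counts the adjusted p was 0.00112, and DESeq2 and limma-voom gave 1.00 and 0.559, a range of 0.00112 to 1.00 over the alternatives. All 13 alternative fits that tested BAM5 kept it below 0. Its counts also varied most within Col-0, where chi-square against library size, per degree of freedom, was 9.58 and the median over the tested starch genes was 0.606. Within amiRNA-VQ1,10 the value was 5.37, and GBSS1 (6.70) and BAM3 (6.45) varied more.

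The remaining family members stood at lower levels, and BAM4, BAM6 and BAM7 were under the filter. BAM2 stood at 31.7 ± 4.13 and 32.1 ± 3.42 CPM. BAM9, which lacks catalytic activity, stood at 28.9 ± 4.80 and 30.4 ± 1.63 CPM. BAM8, a nuclear protein that joins a beta-amylase domain to a DNA-binding domain, had 10.4, 10.8 and 9.05 CPM in Col-0 and 19.8, 11.1 and 12.3 CPM in amiRNA-VQ1,10. Its ranges were apart, but the difference rested on amiRNA-VQ1,10 replicate 1 (log2 fold change 0.51 ± 0.32, adjusted p = 0.873; 0.21 without that library). BAM4, which promotes breakdown without being an active amylase, had 6 to 8 counts in Col-0 and 3 to 11 counts in amiRNA-VQ1,10. BAM6 had 9 to 13 and 2 to 15 counts, and BAM7, a nuclear relative of BAM8, had 3 to 13 and 6 to 8 counts.

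**Figure D3:**
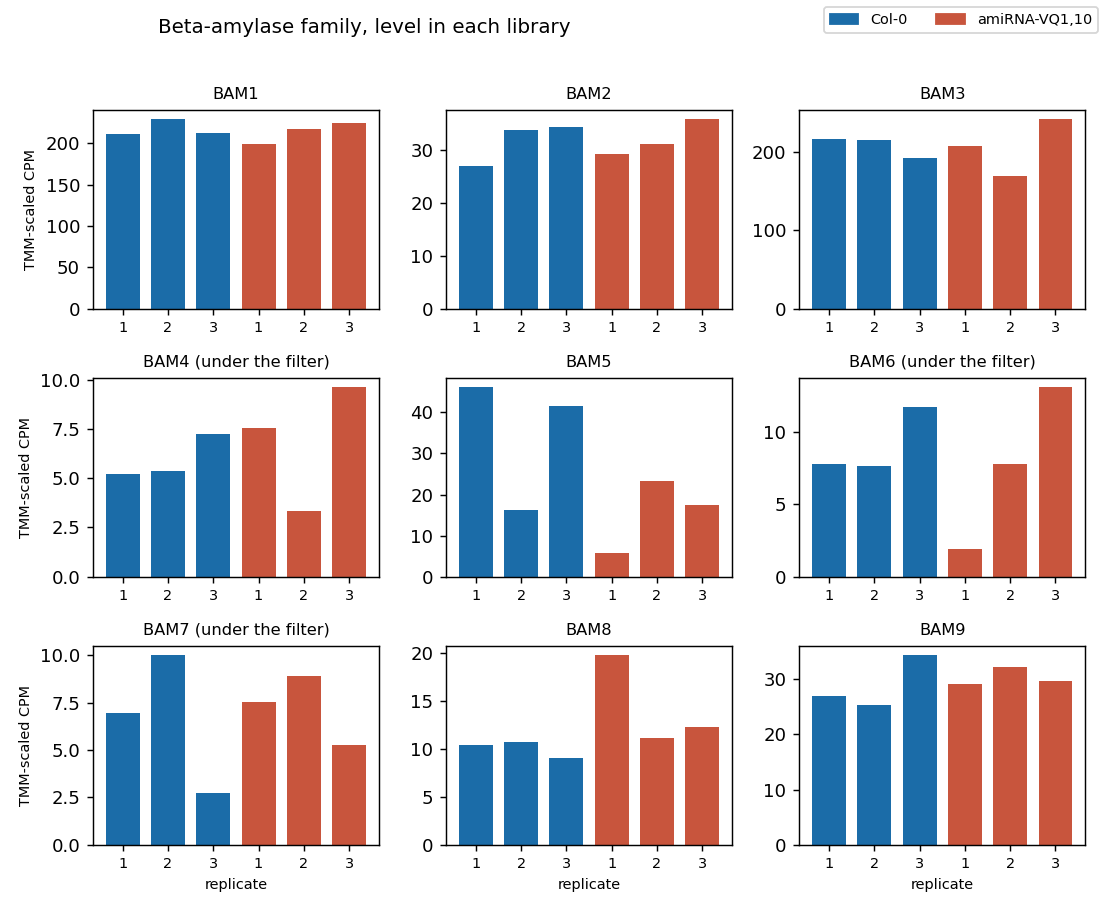
Level of each beta-amylase gene in TMM-scaled CPM (y axis, starting at 0, scale set per panel) in replicates 1 to 3 of Col-0 and amiRNA-VQ1,10 (x axis); each bar is a library. BAM1 and BAM3 stand near 200 CPM in both genotypes, and BAM5 is uneven within each.

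No alpha-amylase passed the test. AMY3, the chloroplast form, had 41.8, 41.6 and 41.6 CPM in Col-0 and 34.9, 42.3 and 46.4 CPM in amiRNA-VQ1,10 (log2 fold change -0.01 ± 0.17, adjusted p = 0.994). AMY2, thought to act in the cytosol, had 19.2, 18.5 and 24.4 CPM in Col-0 and 9.43, 13.4 and 17.5 CPM in amiRNA-VQ1,10. Every amiRNA-VQ1,10 library was below every Col-0 library, yet the difference did not pass over all genes (log2 fold change -0.60 ± 0.27, unadjusted p = 0.0392, edgeR adjusted p = 0.809). Without amiRNA-VQ1,10 replicate 1 it was -0.39 (unadjusted p = 0.195). AMY1, a secreted form linked to dying cells, had 1 count in Col-0 and 1 in amiRNA-VQ1,10 over the 3 libraries of each.

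The debranching enzymes of breakdown were scarce. LDA, which cuts branch points, stood at 11.6 ± 2.47 and 10.4 ± 1.88 CPM. ISA3, the isoamylase that acts on branched fragments of the granule, had 8, 8 and 7 counts in Col-0 and 5, 2 and 5 counts in amiRNA-VQ1,10. Like APL2, ISA3 was under the filter while its CPM was lower in every amiRNA-VQ1,10 library. In the fit without a filter the log2 fold change of ISA3 was -0.73 ± 0.51 and that of APL2 was -0.85 ± 0.50 (SE, edgeR adjusted p = 0.908 for each), from 12 counts of each gene over the amiRNA-VQ1,10 libraries.

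The enzymes that use maltose and short glucans were split in direction, and none passed. DPE1, which joins and splits short glucans in the chloroplast, had 9.58, 9.23 and 12.7 CPM in Col-0 and 13.2, 16.7 and 14.0 CPM in amiRNA-VQ1,10, with ranges just apart (log2 fold change 0.47 ± 0.30, adjusted p = 0.887). DPE2, its cytosolic counterpart for maltose, had 32.2, 30.8 and 35.3 CPM in Col-0 and 41.5, 28.9 and 24.5 CPM in amiRNA-VQ1,10 (log2 fold change -0.05 ± 0.21, adjusted p = 0.992). PHS2, the cytosolic phosphorylase that acts after DPE2, had 34.8, 34.6 and 38.0 CPM in Col-0 and 43.4, 51.2 and 41.1 CPM in amiRNA-VQ1,10. All amiRNA-VQ1,10 libraries were above Col-0, with a difference that did not pass (log2 fold change 0.33 ± 0.17, unadjusted p = 0.0691, adjusted p = 0.857). PHS1, the plastid phosphorylase, lay below 0 instead, at 32.2 ± 4.56 and 28.6 ± 6.27 CPM. MEX1, the maltose exporter, had 20.9, 30.0 and 26.2 CPM in Col-0 and 23.6, 25.6 and 32.4 CPM in amiRNA-VQ1,10 (log2 fold change 0.08 ± 0.22, adjusted p = 0.989).

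ESV1 and LESV, proteins that bind starch glucans and keep the granule ordered, were among the scarcer tested genes. ESV1 had 6.10, 16.9 and 14.5 CPM in Col-0 and 13.2, 10.0 and 14.0 CPM in amiRNA-VQ1,10 (log2 fold change -0.01 ± 0.34, adjusted p = 0.998). LESV had 10.4, 6.93 and 15.4 CPM in Col-0 and 13.2, 10.0 and 12.3 CPM in amiRNA-VQ1,10 (log2 fold change 0.15 ± 0.34, adjusted p = 0.985). For both genes the amiRNA-VQ1,10 values lay inside the Col-0 range, and the spread was wider in Col-0.

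**Figure D4:**
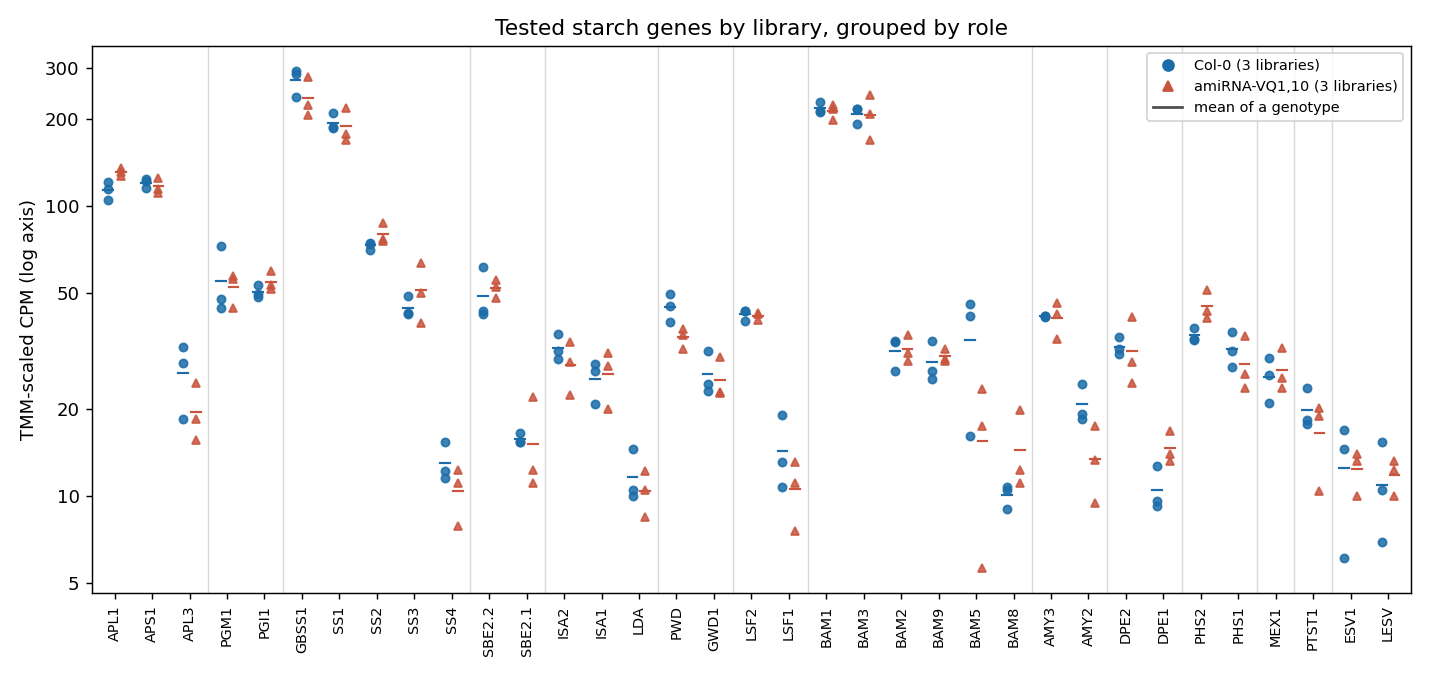
TMM-scaled CPM (y axis, log scale) of the 35 tested starch genes in each library, grouped by role; circles are Col-0, triangles amiRNA-VQ1,10, and short lines the means of 3 libraries. GBSS1, BAM1, BAM3 and SS1 stand highest, and the genotypes overlap in 28 of the 35 genes.

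In level, the tested starch genes spanned 11.03 CPM (LDA) to 254 CPM (GBSS1) as means over the 6 libraries, with a median of 30.4 CPM beside 29.1 CPM over all tested genes. The median chi-square of counts against library size, per degree of freedom, was 0.606 over the tested starch genes and 0.785 over all tested genes within Col-0. Within amiRNA-VQ1,10 the medians were 0.850 and 0.857. Of the 42 genes, 14 overlap another annotated gene, 12 of them at the 3′ end, where the reads of this assay fall. BAM3 and SS2 are among these, by 13 and 47 bases, and BAM6, LSF1, PHS1 and BAM2 by 693, 343, 131 and 104 bases. Genes on the other strand also lie inside BAM3, ISA1, SS3 and APL1, over 518, 1249, 240 and 2386 bases.

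Genes around the pathway were read in the same fit. A list of 26 genes of plastid sugar transport, sucrose synthesis and further starch proteins had 20 tested members, of which 0 passed and 0 had an unadjusted p under 0.05 in the edgeR fit (median log2 fold change 0.02, 12 above 0). The shares over all tested genes were 0.102% and 6.02%, and the counts of 0 say nothing particular to the list. None of the 20 passed by DESeq2 or limma-voom either. TPT, which exports triose phosphate from the chloroplast in the light, stood at 561 ± 41.2 and 594 ± 36.3 CPM, and NTT2, the plastid ATP importer, at 322 ± 33.8 and 327 ± 25.0 CPM. FBP, the cytosolic bisphosphatase of sucrose synthesis, had the smallest p of the list, with 164, 163 and 149 CPM in Col-0 and 187, 175 and 172 CPM in amiRNA-VQ1,10 (log2 fold change 0.16 ± 0.10, adjusted p = 0.885). TPT, NTT2 and FBP were chosen after their values were seen. GPT2, a glucose phosphate importer known to respond strongly to sugar, had 0 to 3 counts in a library.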

How the data were processed

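For each library the authors deposited a list of raw read counts by gene, not normalized. The submitters' processing notes name TAIR10 as genome build and STAR, HISAT2 2.0.4 and DESeq2 as tools, without their roles. The program that made the counts, its strand setting and the use of the 6 bp molecular identifier that the labels describe are not given in these sources. Entries naming no gene stayed out: reads outside genes were 3.79% to 4.07% of a library's entries, reads in several genes 0.103% to 0.109%, and reads with several alignments 4.40% to 5.45%. Genes were filtered with filterByExpr of edgeR 4.0.16 (minimum count 10, minimum total 15), scaled by TMM and tested over all 12701 genes that remained with the quasi-likelihood test in R 4.3.3, with Benjamini-Hochberg adjustment and a threshold of 0.05. The SE was taken as the size of the log2 fold change divided by the root of F, and 95% intervals use the test's degrees of freedom. Alternatives were other scalings, no filter, a strict filter (50 counts in 3 libraries), DESeq2 1.42.0, limma-voom (limma 3.58.1), the replicate number as a block and each library left out. Libraries within a genotype varied beyond counting error (chi-square per degree of freedom 1.27 to 1.66), and the series' design text calls them independent biological replicates. Intervals cover the spread between these libraries.

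Upstream stretches and gene overlaps came from RefSeq TAIR10.1, where all 42 identifiers matched. Gene names were set with the gene list and were not read from RefSeq. The count files carry no coordinates. The genes, lists and tests were chosen with earlier results of these data known. In the alternatives, the count of genes that kept their sign, 17 of 35, used the sign alone, whatever the size of the move. The sign changes described as larger than the SE are those where the value moved by more than the SE of the main fit. Named with every library are those with an unadjusted p under 0.05 and, per role, the most abundant tested gene and the one with the smallest p. The library values of APS1, APL2, APL3, APL4, SS3, SBE2.1, BAM3, BAM8 and ISA3 go beyond that rule and were chosen after they were seen.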

Additional observations from a re-analysis of the deposited data

How the results depend on the processing

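The number of starch genes called was 0 in 12 of the 14 alternatives and 1, BAM5, in the other two: with no filter, and without Col-0 replicate 2, over a range of 0 to 1 with a library left out. At an unadjusted p under 0.05 the number was 2, but 0 with a strict filter, 0 by DESeq2, and 1 to 4 with a library left out. The strict filter tested 11 starch genes, without BAM5 and AMY2. Over all genes 13 were called, against 92 with no filter, 6 with a strict filter, 6 by DESeq2, 8 by limma-voom, and 10 to 37 with a library left out (37 without Col-0 replicate 2, 22 without amiRNA-VQ1,10 replicate 3); the cause was not tested. The related list had 0 calls throughout. The median log2 fold change of synthesis genes was -0.04, but 0.084 with a strict filter, where fewer genes were tested, and -0.12 to 0.028 with a library left out. The medians of all starch genes (-0.08 to 0.02) and of breakdown genes (-0.08 to 0.02) moved by less than their spread between replicates. Of the 35 tested genes 17 kept their sign in every alternative. Sign changes larger than the SE occurred with a library left out in PGM1 (-0.21 to 0.20), BAM3 (-0.14 to 0.11) and SS3 (-0.00077 to 0.37). With the replicate number as a block, 16 genes and 0 starch genes were called. Same-numbered libraries did not deviate together (correlations -0.01, -0.02 and -0.03). Much of the deviation at this depth is counting error, so a weak pairing could be missed. The fits without a library pool the spread over the 5 that remain.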
